A study of Mus musculus with 8 samples.

Results

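The nuclear-encoded subunits of respiratory complexes I, II, III and V were compared between splenic CD8+ T cells that overexpress ATF4 and their WT counterparts. Members were taken by gene symbol, as every Nduf gene of the a, b, c, s and v series, Sdha to Sdhd, and every gene whose symbol begins with Uqcr or Atp5. This gave 65 of the 55291 genes in the table, with 36 in complex I, 4 in complex II, 8 in complex III and 17 in complex V, and all 65 passed the filter on low counts. The ATF4OE group had 4 libraries whose genotype is given as ATF4 Tg/Tg and whose titles name ATF4 overexpression. The WT group had 4 libraries labelled WT. In both groups, polyadenylated RNA came from CD8+ T cells of the spleens of naïve mice, enriched with a magnetic isolation kit and not sorted by flow cytometry. The sample titles of both groups apply the word to the cells, as naïve CD8 T cells. No drug, infection or tumor is named for either group, and age, sex and strain were not given in the labels. The series' design text names the mice differently, as ATF4Tg/Tg or E8IcreATF4Tg/Tg. E8Icre is a Cre driver active in CD8+ T cells, and the labels do not say which animals carried it, so WT is used only as the labels give it. Nothing in the labels ties a library to its own mouse, so the p-values below reflect only how far these libraries spread, part of which may be technical.

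Respiratory complexes sit in the inner mitochondrial membrane. Complex I takes electrons from NADH and complex II takes them from succinate, and both pass them to ubiquinone. Complex III moves them from ubiquinol to cytochrome c, and complex V, the ATP synthase, uses the proton gradient to make ATP. Most of their subunits are encoded in the nucleus and a few of complexes I, III and V in the mitochondrial genome. Naïve CD8+ T cells are known to rely mainly on oxidative metabolism. ATF4 is the transcription factor of the integrated stress response, known for inducing genes of amino acid uptake and synthesis, and it is also induced when mitochondrial function is disturbed.

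The libraries held 93478686 to 125974143 estimated counts. The transcript of Atf4, the overexpressed gene, was at 445, 427, 228 and 212 CPM (counts per 1e6 counts of the scaled library) in ATF4OE replicates 1 to 4, against 285, 308, 165 and 165 CPM in WT replicates 1 to 4. It was higher in ATF4OE than in the same-numbered WT library in each of the 4 pairs, but the groups overlapped. This gave a log2 fold change of 0.51 ± 0.31 (SE) with an adjusted p of 0.37 in edgeR's quasi-likelihood test, and 0.00022 with the replicate number as a block. Here and below, the pairing behind that block comes from the data and not from the labels. When the 4 libraries short of low counts were left out, which sets ATF4OE replicates 3 and 4 against WT replicates 2 and 3 and so unbalances the library sets named next, Atf4 was at -0.11 (adjusted p 0.86). Levels split the libraries into 2 sets, replicates 1 and 2 (set 1) against replicates 3 and 4 (set 2) of each group, whose columns in the deposited table are also named in different styles. The summed level of 10 CD8 T cell markers was 5692 to 5873 CPM in ATF4OE and 6940 to 7306 CPM in WT, and 6 of the 10 were called lower. Markers of other cells were called higher in ATF4OE for 7 of 10 B cell, 5 of 10 myeloid, 7 of 10 erythroid, 6 of 8 platelet, 3 of 8 NK and 3 of 4 CD4 T cell genes. Their summed levels were 625 to 1006 CPM in ATF4OE and 615 to 792 CPM in WT for B cells, 129 to 302 and 19.3 to 81.5 CPM for myeloid cells, 81.7 to 280.0 and 11.9 to 15.9 CPM for erythroid cells, 69.3 to 85.0 and 26.9 to 36.7 CPM for platelets, 198 to 338 and 101 to 187 CPM for NK cells, and 33.4 to 47.6 and 7.37 to 14.6 CPM for CD4 T cells, in the same order of groups. The B cell sums lay close, whereas the median log2 fold change of the 10 B cell markers was 2.16, with a range from -0.10 to 3.06. No marker was at 0 in all libraries, and the part of such cells in the results below was not tested. In bulk RNA, fewer cells of a type and less RNA per cell cannot be told apart.

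Subunit transcripts differed little between the genotypes. One member, Uqcrh of complex III, was called lower in ATF4OE at an adjusted p below 0.05, and 0 of 65 were called higher. Over all 16630 tested genes, 4.89% were called lower and 9.16% higher (14.1% in either direction), and among the 8764 genes that averaged 10 CPM or more, where 63 of the members lie, 7.96% were called lower and 5.72% higher (13.7% in either direction). At an unadjusted p below 0.05 there were 6 members, 4 of complex I and 1 each of complexes III and V, with 0 in complex II, and all 6 were below 0. At that threshold stood 26.5% of all tested genes and 26.9% of those with at least 10 CPM, and 11.4% and 17.4% were below 0 as well. DESeq2 called 3 members lower and 0 higher, against 6.55% and 12.8% of all tested genes. Limma-voom called 1 lower and 0 higher, against 4.94% and 8.39%. ATF4OE and WT libraries did not overlap for 3 members, Uqcrh, Ndufb5 and Ndufa6, while the groups did not overlap for 22% of all tested genes and 20% of those with at least 10 CPM.

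The differences that were measured were small and mostly below 0. The median log2 fold change of ATF4OE over WT was -0.08 over the 65 members, with -0.06 for complex I, -0.08 for complex II, -0.09 for complex III and -0.10 for complex V, beside -0.02 over all tested genes and -0.06 over genes with at least 10 CPM. A value below 0 was found for 26 of 36 members of complex I, 3 of 4 of complex II, 7 of 8 of complex III and 15 of 17 of complex V. The sign of these medians depended on the scaling: scaling to total counts alone moved all genes by 0.13 on the log2 scale and gave 0.06 for the members, against 0.11 for all genes, since a scaling moves all genes alike. The extremes were Ndufb4 at -0.51 and Uqcrq at 0.25. For 60 of 65 members the 95% interval of the fold change lay within 1.5-fold in both directions, and for 19 it lay within 1.25-fold. The 5 members with a wider interval were Ndufb4, Ndufc1, Ndufa4, Atp5mpl and Atp5e. The share of genes with an interval within 1.5-fold was 77.4% among genes with at least 10 CPM.

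**Figure D1:**
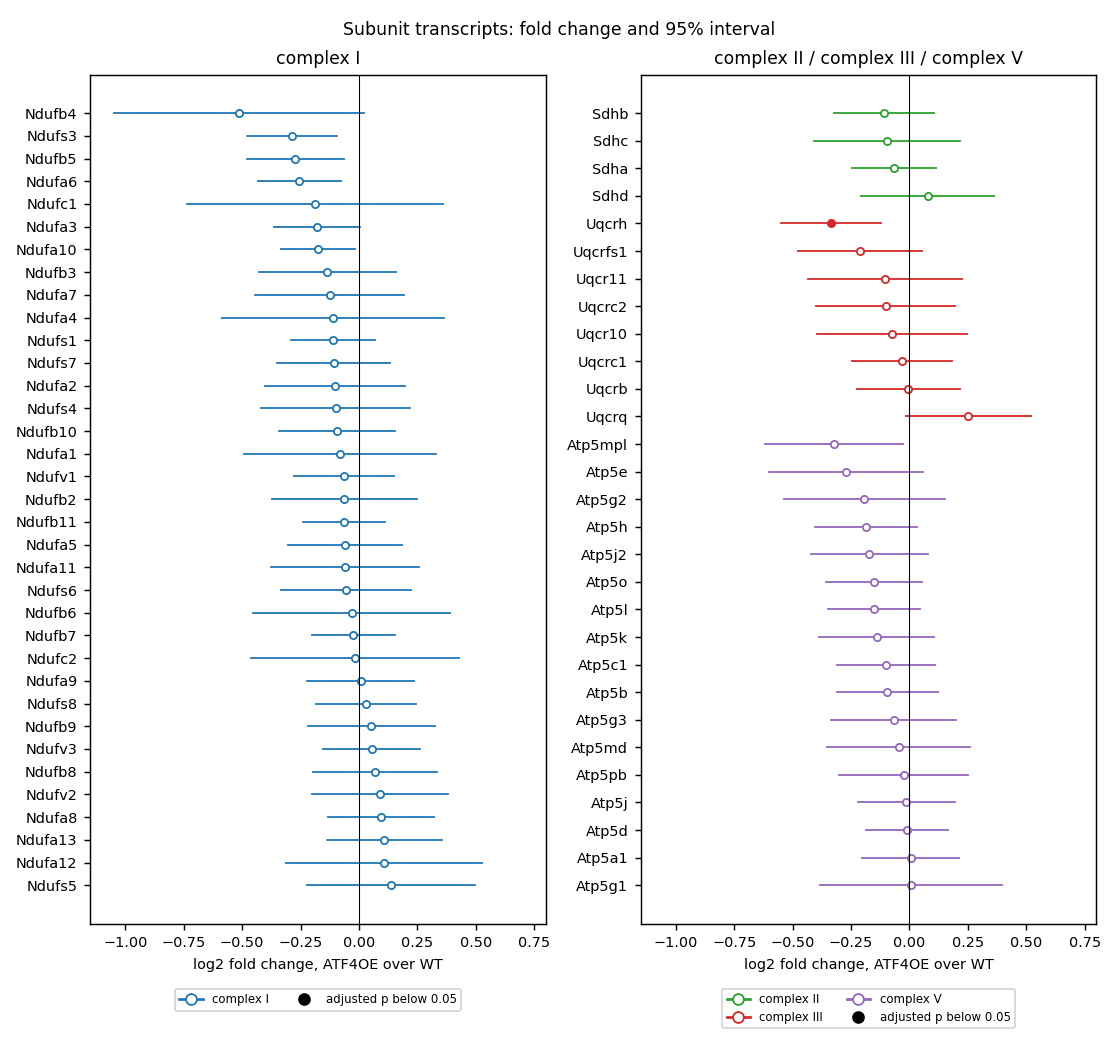
Log2 fold change of ATF4OE over WT (x axis) for the subunits (y axis), by complex, with its 95% interval from edgeR's fit over 4 ATF4OE and 4 WT libraries; filled points passed an adjusted p below 0.05. Most points lie slightly left of 0, between -0.51 for Ndufb4 and 0.25 for Uqcrq, and only Uqcrh is filled.

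The summed levels of the complexes overlapped between the groups. Summed over its members, complex V was the most abundant, at 2292 ± 290 CPM in ATF4OE and 2427 ± 75.5 CPM in WT (SD, n = 4 each). Complex I summed to 1521 ± 152 CPM in ATF4OE and 1593 ± 56.9 CPM in WT. Complex III summed to 609 ± 70.2 CPM in ATF4OE and 673 ± 25.2 CPM in WT, and complex II to 392 ± 41.6 CPM in ATF4OE and 407 ± 23.0 CPM in WT. In each complex the SD of the ATF4OE libraries was larger than that of the WT libraries. Together the 65 members took 0.437% to 0.576% of the counts in ATF4OE and 0.465% to 0.522% in WT.

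Per kilobase of transcript, the order of the members was much the same in both groups at its ends. The highest level was that of Uqcrh, the hinge protein of complex III, at 309 CPM per kb in ATF4OE and 390 CPM per kb in WT. Atp5b, the catalytic beta subunit of ATP synthase, followed at 295 CPM per kb in ATF4OE and 315 CPM per kb in WT. The lowest was Ndufb4, an accessory subunit of complex I, at 6.35 CPM per kb in ATF4OE and 9.06 CPM per kb in WT. The median member was at 58.7 CPM per kb in ATF4OE and 60.3 CPM per kb in WT, with 98.2 and 110 CPM per kb for complex V against 42.5 and 46.0 CPM per kb for complex I, in the same order of groups. These levels rest on the annotated transcript lengths, 315 to 3171 bases.

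In complex III, Uqcrh (chromosome 4, 116066965 to 116075070, GRCm38.p6) carried the one call. The hinge protein binds cytochrome c1 near the site where cytochrome c docks. Uqcrh was at 150.1, 172, 163 and 189 CPM in ATF4OE replicates 1 to 4, against 191, 238, 199 and 224 CPM in WT replicates 1 to 4. Every ATF4OE library lay below every WT library, with the gap between 189 and 191 CPM narrow, and in each of the 4 same-numbered pairs ATF4OE was lower. Uqcrh fell to 169 ± 16.5 CPM in ATF4OE, against 213 ± 21.6 CPM in WT (SD, n = 4 each), a log2 fold change of -0.34 ± 0.10 (SE; 95% interval -0.55 to -0.12) with an adjusted p of 0.044, and of 0.0011 with the replicate block. The call was lost, with the direction kept, under other scalings, within each library set, and on leaving out any 1 of 6 of the 8 libraries (ATF4OE replicates 1, 2 and 3 and WT replicates 2, 3 and 4), where the adjusted p was 0.066 to 0.11.

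Uqcrq, which like Uqcrb is a small subunit beside the cytochrome b of complex III, had the highest log2 fold change of all members. Its levels were 29.6, 32, 39.0 and 35.4 CPM in ATF4OE and 24.1, 29.0, 33.4 and 27.7 CPM in WT. ATF4OE was higher in each same-numbered pair, but the groups overlapped. The log2 fold change was 0.25 ± 0.12 (SE) with an adjusted p of 0.22, and of 0.017 with the replicate block, which made Uqcrq the 1 member called higher in that fit. Uqcrfs1, the Rieske iron-sulfur protein that carries out electron transfer, was at 60.3, 46.1, 63.1 and 47.5 CPM in ATF4OE and 66.5, 62.3, 67.5 and 54.9 CPM in WT. Its groups overlapped; the log2 fold change was -0.21 ± 0.12 (SE), with an adjusted p of 0.31 and of 0.033 with the block. The core proteins Uqcrc1 and Uqcrc2, the largest subunits of the complex, had log2 fold changes of -0.03 and -0.10, and Uqcr11 one of -0.11. Uqcrb and Uqcr10 were at -0.01 and -0.08. None of these 5 passed the test.

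In complex I, 0 of 36 members were called in either direction. The smallest p-value belonged to Ndufs3, a core subunit of the quinone-binding arm. Ndufs3 was at 48.8, 43.7, 48.0 and 44.0 CPM in ATF4OE and 61.2, 58.9, 56.3 and 48.8 CPM in WT. The groups met at one point, since WT replicate 4 and ATF4OE replicate 1 were both near 48.8 CPM. Its log2 fold change was -0.29 ± 0.09 (SE), with an adjusted p of 0.054 and of 0.0087 with the block. Ndufa6, an accessory subunit that with Ndufab1 docks on the quinone arm, was at 54.7, 55.6, 62.2 and 60.9 CPM in ATF4OE and 62.7, 68.5, 74.3 and 73.2 CPM in WT. Its groups did not overlap, and set 2 was above set 1 in both. Its log2 fold change was -0.26 ± 0.08 (SE), with an adjusted p of 0.061 and of 0.0038 with the block. Ndufb5, an accessory subunit of the membrane arm, was at 43.6, 39.0, 47.7 and 45.8 CPM in ATF4OE and 60.8, 49.4, 52.7 and 49.6 CPM in WT, again without overlap. Its log2 fold change was -0.27 ± 0.09 (SE), with an adjusted p of 0.088 and of 0.022 with the block.

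The other complex I members did not pass the test without the block either. Ndufa10, an accessory subunit of the membrane arm, averaged 84.0 ± 6.12 CPM in ATF4OE and 94.8 ± 3.22 CPM in WT, with a log2 fold change of -0.17 and an adjusted p of 0.15, or of 0.039 with the block. Ndufa3, another accessory subunit, averaged 40.4 ± 2.61 CPM in ATF4OE and 45.7 ± 3.56 CPM in WT, with an adjusted p of 0.20. Ndufs5, with the highest log2 fold change of the complex at 0.14, averaged 20.0 ± 4.08 CPM in ATF4OE and 18.2 ± 2.56 CPM in WT, with an adjusted p of 0.68. The core subunits that receive electrons from NADH were chosen for their role after their values were seen. Ndufv1, which binds NADH and the flavin, had a log2 fold change of -0.07, Ndufv2 one of 0.09 and Ndufs1 one of -0.11, and none passed the test. The 29 accessory subunits had a median of -0.06 and ran from -0.51 to 0.14. Ndufa4, which carries a complex I name but is now assigned to complex IV, averaged 58.5 ± 18.3 CPM in ATF4OE and 63.2 ± 10.8 CPM in WT, with a log2 fold change of -0.11 and an adjusted p of 0.82.

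Ndufb4, the lowest of all members by log2 fold change, was at 5.13, 3.75, 8.21 and 7.57 CPM in ATF4OE and 9.75, 8.35, 7.86 and 9.23 CPM in WT. Its 2 low values were those of ATF4OE replicates 1 and 2, and replicate 3 was above WT replicate 3. The log2 fold change was -0.51 ± 0.24 (SE) with an adjusted p of 0.21, and it was called lower within set 1 alone (log2 fold change -1.0, adjusted p 0.034). The deposited counts of Ndufb4 were not whole numbers, so reads it shares with similar sequences were divided by the quantifier's model, and its level is uncertain. Counts were whole in every library for 44 of the 65 members, Uqcrh, Ndufa6 and Ndufb5 among them, and not for Ndufs3.

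Complex II had 0 of 4 members called. Sdha, the flavoprotein that oxidizes succinate, was at 214, 215, 241 and 252 CPM in ATF4OE and 225, 231, 251 and 258 CPM in WT. ATF4OE was lower in each same-numbered pair, by less than the distance between the library sets, and the groups overlapped (log2 fold change -0.07 ± 0.08 SE, adjusted p 0.69). Sdhb, the iron-sulfur subunit, was at 52.4, 54.1, 65.6 and 66.5 CPM in ATF4OE and 59.3, 64.8, 64.3 and 68.7 CPM in WT, with a log2 fold change of -0.11 ± 0.10 (SE) and an adjusted p of 0.56. Sdhc, a membrane anchor, was at 38.3, 35.6, 53.9 and 45.2 CPM in ATF4OE and 51.0, 39.9, 51.4 and 42.6 CPM in WT, with an adjusted p of 0.75. The other anchor, Sdhd, was at 55.0, 46.9, 67.9 and 63.6 CPM in ATF4OE and 53.1, 51.1, 65.6 and 51.4 CPM in WT, with an adjusted p of 0.78. Sdhd was the only member of the complex with a log2 fold change above 0, at 0.08 ± 0.13 (SE), whereas with scaling to total counts all 4 were above 0.

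Complex V had 0 of 17 members called. The catalytic head is made of the alpha and beta subunits, the most abundant members. Atp5b was at 512, 487, 649 and 615 CPM in ATF4OE and 606, 580.0, 625 and 605 CPM in WT, and Atp5a1 averaged 516 ± 65.7 CPM in ATF4OE and 515 ± 22.8 CPM in WT. Both were named for their abundance after their values were seen. For Atp5b the ATF4OE libraries of set 1 were below every WT library while one of set 2 was above every one, and the log2 fold change was -0.09 ± 0.10 (SE; adjusted p 0.62). For Atp5a1 it was 0.00, with a 95% interval of -0.20 to 0.21.

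The lowest values of complex V were those of small subunits. Atp5mpl, a small membrane protein of the synthase, was at 35.1, 29.8, 44.0 and 34.9 CPM in ATF4OE and 47.4, 37.9, 51.7 and 42.6 CPM in WT. Atp5e, the epsilon subunit of the central stalk, was at 63.4, 49.3, 73.9 and 53.8 CPM in ATF4OE and 78.5, 59.1, 85.2 and 67.1 CPM in WT. For both genes the groups overlapped, ATF4OE was lower in each same-numbered pair, and replicates 1 and 3 were above 2 and 4 in both groups. The log2 fold change of Atp5mpl was -0.32 ± 0.13 (SE), with an adjusted p of 0.15 and of 0.0036 with the block. That of Atp5e was -0.27 ± 0.15 (SE), with an adjusted p of 0.29 and of 0.0028 with the block. Atp5j2, the f subunit of the membrane part, had a log2 fold change of -0.17 and an adjusted p of 0.39, or of 0.033 with the block.

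Atp5h, Atp5o, Atp5l and the 3 genes of the c ring did not pass the test in either fit. Atp5h, the d subunit of the peripheral stalk, averaged 134 ± 18.8 CPM in ATF4OE and 153 ± 6.64 CPM in WT (adjusted p 0.27), and it was called lower within set 1 alone (log2 fold change -0.33, adjusted p 0.040). Atp5o, which links the stalk to the head, averaged 82.3 ± 9.21 CPM in ATF4OE and 91.4 ± 6.19 CPM in WT (adjusted p 0.35). Atp5l, the g subunit, averaged 78.1 ± 9.33 CPM in ATF4OE and 86.8 ± 2.61 CPM in WT (adjusted p 0.33). Atp5g1, Atp5g2 and Atp5g3 encode the same mature c subunit, which forms the rotating ring. Atp5g1 averaged 45.5 ± 12.0 CPM in ATF4OE and 45.3 ± 6.37 CPM in WT, Atp5g2 65.9 ± 11.6 and 75.3 ± 13.9 CPM, and Atp5g3 104 ± 16.6 and 109 ± 11.0 CPM, in the same order of groups. Their log2 fold changes were 0.01, -0.19 and -0.07, and no difference between these paralogs was tested. The deposited counts of Atp5g1, Atp5g2, Atp5h, Atp5o and Atp5l were not whole in every library, whereas those of Atp5g3 were. Reads that these 5 genes share with similar sequences were divided by the quantifier's model, so their levels are less certain.

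**Figure D2:**
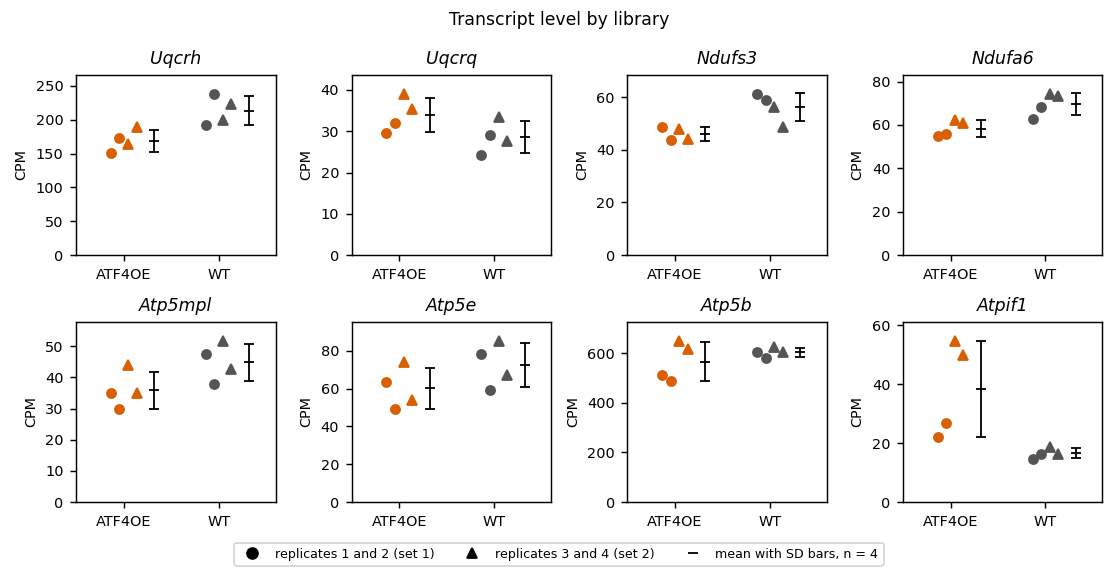
Level in CPM (y axis, from 0) of 7 subunits and the ATP synthase inhibitor Atpif1 in each of the 4 ATF4OE and 4 WT libraries (x axis), with circles for replicates 1 and 2 (set 1), triangles for replicates 3 and 4 (set 2) and bars for the mean and SD. Uqcrh and Ndufa6 do not overlap between the groups, Atp5b and Atp5e do, and Atpif1 is highest in ATF4OE replicates 3 and 4 at 54.8 and 50.1 CPM.

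Same-numbered libraries of both groups deviated together, but so did some libraries with different numbers. Over the 65 members, deviations from the group means correlated at 0.51, 0.68, 0.61 and 0.56 for replicates 1 to 4. The correlation was 0.57 for ATF4OE replicate 3 with WT replicate 1. It was 0.38 for ATF4OE replicate 2 with WT replicate 4, and 0.37 for ATF4OE replicate 4 with WT replicate 2. Differently numbered libraries of the same set correlated below 0 over the members. In set 1 this was -0.57 for ATF4OE replicate 2 with WT replicate 1 and -0.36 for ATF4OE replicate 1 with WT replicate 2. In set 2 it was -0.44 for ATF4OE replicate 4 with WT replicate 3 and -0.48 for ATF4OE replicate 3 with WT replicate 4. With the replicate number as a block more members passed the test. In that fit 9 members were called lower and 1 higher, against 13.5% of all tested genes called lower and 13.7% higher, and 22.8% lower and 10.7% higher among genes with at least 10 CPM. The members called lower were Ndufa6, Ndufb5, Ndufs3 and Ndufa10 of complex I, Uqcrh and Uqcrfs1 of complex III, and Atp5e, Atp5mpl and Atp5j2 of complex V. The member called higher was Uqcrq. With the library set as a block instead, 6 were called lower, against 11.6% of all tested genes. The share of members called lower was close to that over all tested genes and below that of genes with at least 10 CPM.

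The median difference was not the same in the 2 library sets. Between ATF4OE and WT the median log2 fold change was -0.17 within set 1, where 56 of 65 members were below 0, and 0.03 within set 2, where 28 were below 0. Over genes with at least 10 CPM the medians were -0.04 in both sets. By complex, the set 1 and set 2 medians were -0.14 and 0.02 for complex I, -0.12 and 0.03 for complex II, -0.21 and 0.07 for complex III, and -0.21 and 0.02 for complex V. The log2 fold change was higher in set 2 than in set 1 for 57 of the 65 members, all 4 of complex II and all 8 of complex III among them. No member passed the test of the difference between sets (the interaction of genotype and set) at an adjusted p below 0.05, which 0.998% of all tested genes did, and 13 of 65 had an unadjusted p below 0.05, beside 12.6% of all tested genes. Below 0 in both sets were 25 members and above 0 in both were 6, with a Pearson correlation of 0.29 between the sets over the 65 members, which share each library. Within set 2, Ndufa6 was the 1 member called (adjusted p 0.025), beside 22.3% of all genes tested there, and within set 1 the 2 called were Ndufb4 and Atp5h, beside 9.82%, in either direction. These fits had 2 libraries in each group.

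**Figure D3:**
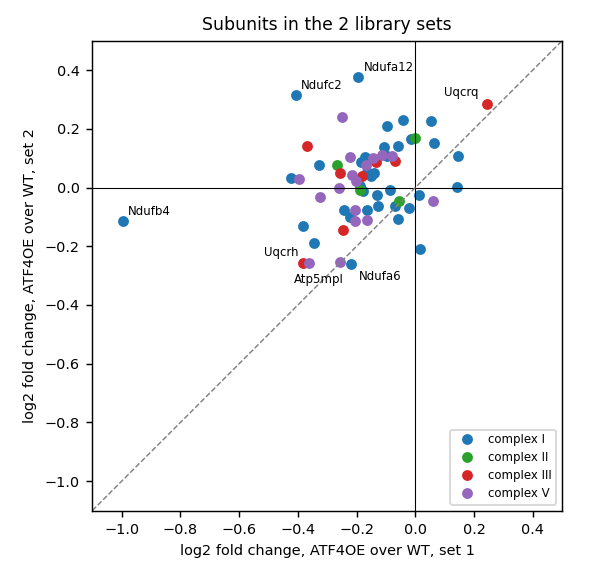
Log2 fold change of ATF4OE over WT within set 1 (x axis, replicates 1 and 2) and within set 2 (y axis, replicates 3 and 4) for each of the 65 subunits, coloured by complex, with the dashed line marking equal values. Most points lie above the line (57 of 65) and left of 0 on the x axis (56 of 65), with Ndufb4 far to the left at -1.0.

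By library, and relative to the WT mean, the median member was at -0.22 and -0.30 on the log2 scale in ATF4OE replicates 1 and 2 and at 0.12 and 0.04 in ATF4OE replicates 3 and 4, against -0.05, -0.03, 0.07 and 0.00 in WT replicates 1 to 4. The ATF4OE libraries of set 1 were thus the lowest of the 8 and ATF4OE replicate 3 the highest, and the same held for each complex on its own. ATF4OE replicates 1 and 2 were also among the 4 libraries, with WT replicates 1 and 4, that had under 1000 genes with 2 to 5 counts. Erythroid markers rose from set 1 to set 2 in ATF4OE only. They were at 82.1 and 81.7 CPM in ATF4OE replicates 1 and 2 and 280.0 and 266 CPM in replicates 3 and 4. In WT they were at 14.7 and 15.9 CPM in set 1 and 14.4 and 11.9 CPM in set 2. Myeloid markers rose from set 1 to set 2 in both groups. They were at 146 and 129 CPM and 296 and 302 CPM in ATF4OE, against 19.3 to 23.9 CPM and 77.1 to 81.5 CPM in WT. The summed B cell markers ran the other way, at 1006 and 966 CPM in ATF4OE replicates 1 and 2 and 625 and 659.6 CPM in replicates 3 and 4, against 746 and 792 CPM and 615 and 643 CPM in WT. A sum follows its most abundant genes. The median log2 fold change of the 10 B cell markers was 2.02 within set 1 and 2.70 within set 2. NK cell markers were at 338 and 310.1 CPM in ATF4OE replicates 1 and 2 and 198 and 211 CPM in replicates 3 and 4, against 101 and 120 CPM and 172 and 187 CPM in WT. The part of these in the members' levels was not tested.

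**Figure D4:**
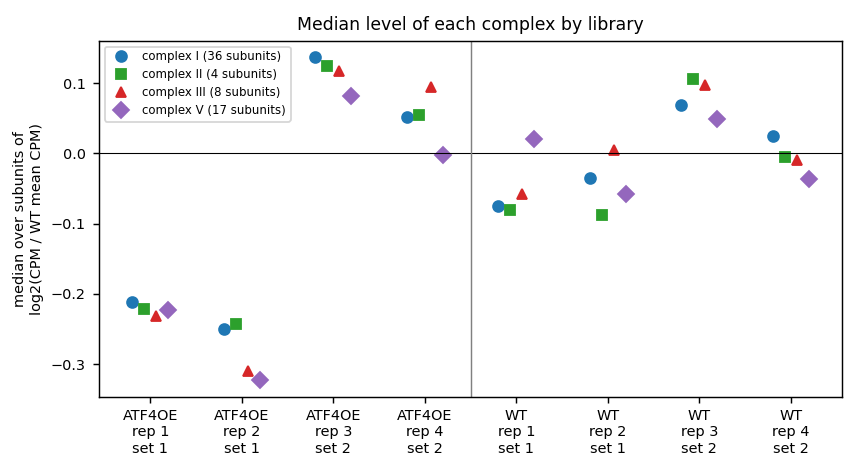
Median over the subunits of each complex of log2(CPM over the WT mean CPM) (y axis) in each library (x axis), with 0 marking the WT mean. ATF4OE replicates 1 and 2 lie lowest for all 4 complexes, and ATF4OE replicate 3 lies highest.

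Some members alternated between odd and even replicates. In both groups, replicates 1 and 3 were above replicates 2 and 4 for 10 members, among them Atp5e, Atp5mpl, Atp5j2, Uqcrfs1 and Ndufa3, or 15.4% of members against 5.28% of genes with at least 10 CPM. The reverse held for 5 members, Ndufa1, Ndufb10, Ndufv3, Uqcrb and Uqcrh, or 7.69% against 5.58%. These lists were found in the data and carry no test.

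The sequences upstream of the 3 members whose groups did not overlap, and of Ndufs3, which had the smallest p-value of complex I, were read from RefSeq promoter tables on GRCm38.p6, where 55 of the 65 members had an entry. They are shown because nuclear respiratory genes are known as targets of NRF1 and of the ETS factor GABP, and many ATF4 targets as carriers of the C/EBP-ATF response element (CARE). Each line holds the 250 bases before the start of transcription, 5′ to 3′ in the direction of the gene, with capitals for the NRF1 core or the GABP (ETS) core on either strand, neither of which is in the Ndufb5 window.
Uqcrh, chr4:116075071-116075320, minus strand: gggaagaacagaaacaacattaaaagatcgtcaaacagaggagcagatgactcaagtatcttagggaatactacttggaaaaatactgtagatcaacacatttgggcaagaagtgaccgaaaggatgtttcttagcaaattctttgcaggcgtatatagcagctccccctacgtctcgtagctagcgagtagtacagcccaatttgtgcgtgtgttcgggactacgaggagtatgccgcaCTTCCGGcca
Ndufa6, chr15:82354292-82354541, minus strand: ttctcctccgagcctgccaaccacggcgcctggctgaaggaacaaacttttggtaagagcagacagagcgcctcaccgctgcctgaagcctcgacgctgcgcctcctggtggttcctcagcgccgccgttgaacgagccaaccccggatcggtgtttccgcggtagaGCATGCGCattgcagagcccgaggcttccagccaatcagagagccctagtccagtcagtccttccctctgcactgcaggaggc
Ndufb5, chr3:32736813-32737062, plus strand: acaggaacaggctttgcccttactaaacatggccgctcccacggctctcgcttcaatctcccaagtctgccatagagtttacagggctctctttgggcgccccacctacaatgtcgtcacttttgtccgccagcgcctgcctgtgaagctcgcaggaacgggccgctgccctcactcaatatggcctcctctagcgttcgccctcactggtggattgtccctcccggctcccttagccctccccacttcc
Ndufs3, chr2:90904722-90904971, minus strand: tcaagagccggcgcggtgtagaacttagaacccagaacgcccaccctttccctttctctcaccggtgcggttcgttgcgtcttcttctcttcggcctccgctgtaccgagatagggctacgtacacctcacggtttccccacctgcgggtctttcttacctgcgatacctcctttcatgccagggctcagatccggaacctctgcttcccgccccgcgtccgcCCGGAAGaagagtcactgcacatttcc

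Both strands of all 60 windows of the 55 genes were searched, and a gene with several windows was counted once if any of them held the motif. The NRF1 core GCATGCGC was found for 7 of 55 genes (12.7%), Ndufa6 among them, against 2.56% of all 27025 genes with an entry and 3.32% of the 17492 coding genes. The GABP (ETS) core CCGGAAG was found for 10 of 55 (18.2%), Uqcrh, Ndufs3 and Atp5e among them, against 7.83% of all genes and 10.2% of coding genes. The CARE core TGATGNAA was found for 0 of 55, against 3.91% of all genes and 3.64% of coding genes. A match is a stretch of letters and not a shown binding site, and a missing match says only that the letters are not in the window.

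Of 4 tested relatives outside the symbol rule, 1 was called higher and 0 lower. Cyc1, the cytochrome c1 of complex III, averaged 64.7 ± 7.83 CPM in ATF4OE and 69.3 ± 6.97 CPM in WT (log2 fold change -0.10, adjusted p 0.64). Ndufab1, the acyl carrier protein of complex I, averaged 25.8 ± 3.93 CPM in ATF4OE and 27.1 ± 2.58 CPM in WT (log2 fold change -0.07, adjusted p 0.79). The gene called higher was Atpif1, which encodes the inhibitor that blocks ATP hydrolysis by complex V. It was at 22.3, 27.0, 54.8 and 50.1 CPM in ATF4OE, against 14.7, 16.3, 18.8 and 16.4 CPM in WT. Every ATF4OE library was above every WT library, and the ATF4OE libraries of set 2 were the highest. Atpif1 rose in ATF4OE, to 38.5 ± 16.3 CPM against 16.5 ± 1.69 CPM in WT (SD, n = 4 each), with a log2 fold change of 1.22 ± 0.27 (SE; 95% interval 0.61 to 1.83), an adjusted p of 0.016 and of 0.0093 with the block. The log2 fold change was 0.70 in set 1 (adjusted p 0.022) and 1.58 in set 2 (adjusted p 0.0002), and the difference between the sets passed the test (adjusted p 0.048). Without WT replicate 1 the adjusted p was 0.051, with a log2 fold change of 1.17. Erythroid markers, summed above, were likewise highest in ATF4OE replicates 3 and 4, and Atpif1 is known for its part in heme synthesis in red cell precursors. The part of erythroid RNA in this result was not tested.

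Of the subunits encoded in the mitochondrial genome, 0 of 10 were called in either direction, with a median log2 fold change of -0.27, and the values of all 10 were below 0. The transcript mt-Nd2, a membrane subunit of complex I, was at 1852, 2894, 1703 and 2634 CPM in ATF4OE and 3102, 3821, 2339 and 3432 CPM in WT. ATF4OE was lower in each same-numbered pair and the groups overlapped, with a log2 fold change of -0.48 ± 0.20 (SE) and an adjusted p of 0.15, or of 0.00058 with the block. With the block mt-Nd1 (adjusted p 0.0019) and mt-Nd4 (adjusted p 0.032), both complex I subunits, were also called lower, so 3 of 10 were. The smaller mt-Atp8 of complex V was at 593, 548, 823 and 731 CPM in ATF4OE and 1009.8, 1089, 627 and 1315 CPM in WT. WT replicate 3 lay among the ATF4OE libraries, and mt-Atp8 had a log2 fold change of -0.58 with an adjusted p of 0.11. Within set 1 alone, mt-Atp8 (log2 fold change -0.85, adjusted p 0.00088) and mt-Nd3 (-0.46, adjusted p 0.044) were called lower. Within set 2 alone, mt-Atp6 was called lower (-1.22, adjusted p 0.0024), whereas in set 1 it was at 0.25 (adjusted p 0.91). Reads of mt-Atp8 and mt-Atp6, whose genes overlap, cannot be fully told apart, and the libraries were made from polyadenylated RNA.

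Genes that build or feed the complexes also showed few calls. Complex IV, which was not part of the rule, had 0 of 10 listed nuclear subunits called and a median of -0.07. Its Cox4i1 averaged 150 ± 20.8 CPM in ATF4OE and 181 ± 7.40 CPM in WT (log2 fold change -0.27, adjusted p 0.10, or 0.0088 with the block). Cox6a2, a complex IV subunit isoform outside the 10 listed, was called higher. It averaged 79.3 ± 13.2 CPM in ATF4OE and 0.089 ± 0.033 CPM in WT. The groups of Cox6a2 did not overlap (log2 fold change 9.79, adjusted p 1.1e-08). Assembly factors had 0 of 16 called for complex I, 0 of 4 for complex II and 0 of 4 for complex V, with medians of -0.10, -0.09 and -0.11. With the block, Ndufaf4 and Tmem186 of complex I were called lower (adjusted p 0.037 and 0.018). For complex III, 1 of 6 was called lower. That gene was Lyrm7, which helps insert the Rieske protein, at 8.0, 9.08, 10.3 and 9.98 CPM in ATF4OE and 12.2, 11.1, 15.5 and 15.9 CPM in WT. The groups did not overlap, and the log2 fold change was -0.55 ± 0.16 (SE) with an adjusted p of 0.043, which was lost in most alternative fits, within set 1 (0.20) among them, but was kept within set 2 (0.0084) and with the block (0.0080). With the block Uqcc3, which helps build cytochrome b, was called lower too (adjusted p 0.015).

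Among 12 regulators of mitochondrial biogenesis, 2 were called lower and 0 higher, with a median of -0.05. Pprc1, a coactivator related to PGC-1alpha, was at 98.7, 107, 97.3 and 96.5 CPM in ATF4OE and 127, 121, 124 and 121 CPM in WT. The groups were well apart, and Pprc1 fell to 99.8 ± 4.6 CPM in ATF4OE, against 123 ± 2.62 CPM in WT (log2 fold change -0.31 ± 0.06 SE, adjusted p 0.0084). That call was lost with scaling to total counts (adjusted p 0.087), within set 1 (0.14) and without the 4 libraries short of low counts (0.078). Tfb2m, a transcription factor of the mitochondrial genome, averaged 31.8 ± 1.56 CPM in ATF4OE and 39.6 ± 4.45 CPM in WT (log2 fold change -0.32 ± 0.09 SE, adjusted p 0.048), a call lost in most alternative fits. Tfb1m, which methylates the mitochondrial ribosomal RNA, had a log2 fold change of -0.41 and an adjusted p of 0.15, or of 0.030 with the block.

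Electron carriers and quinone synthesis had 0 of 20 called and a median of -0.01, and the TCA cycle 0 of 14 and a median of 0.00. Etfb, a subunit of the flavoprotein that hands electrons from fat oxidation to ubiquinone, averaged 29.1 ± 5.32 CPM in ATF4OE and 22.3 ± 1.67 CPM in WT. Its log2 fold change was 0.39 ± 0.13 (SE), with an adjusted p of 0.085, or of 0.033 with the block. Of the TCA cycle, Ogdh averaged 245 ± 5.94 CPM in ATF4OE and 232 ± 10.6 CPM in WT (adjusted p 0.52), and Idh3b averaged 123 ± 8.71 CPM in ATF4OE and 135 ± 10.4 CPM in WT (adjusted p 0.33).

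**Figure D5:**
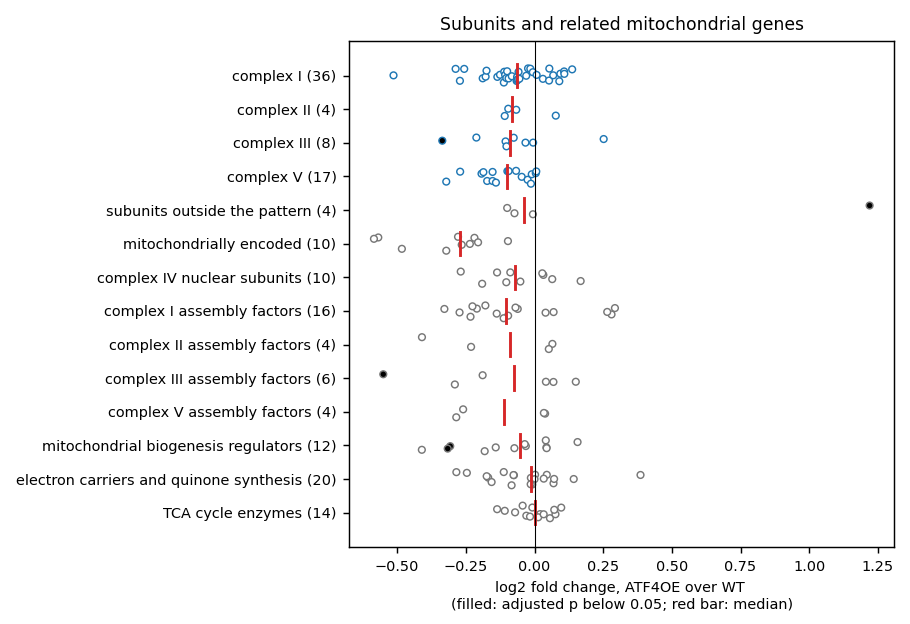
Log2 fold change of ATF4OE over WT (x axis) for each subunit and each gene of the related mitochondrial lists (y axis, number of tested genes in parentheses), with filled points for an adjusted p below 0.05 and a red bar for the median of the list. Medians run from -0.27 for the mitochondrially encoded genes to 0.00 for the TCA cycle, and the filled point far to the right is Atpif1 at 1.22.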

How the data were processed

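The authors deposited 1 table of expected counts (estimated counts per gene), made with Salmon on the mouse build GRCm38 p6, per the submitters' processing notes. Annotation release and strand setting are not given in the sources here. Salmon divides reads shared by similar transcripts by a model. Sample titles gave the groups (4 libraries each) and replicate numbers, and 0 columns were unused. Counts were rounded and tested by quasi-likelihood in edgeR 4.0.16 under R 4.3.3 (TMM, filterByExpr, robust dispersions, group as the only term). Of 55291 genes, 16630 were tested, with Benjamini-Hochberg adjustment over all of them and calls at an adjusted p below 0.05. CPM are counts per 1e6 of the TMM-scaled library. Intervals of fold changes are at 95%. The depth left little counting error, and reads without molecular identifiers are not independent molecules.

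Deviations from the group means of same-numbered libraries correlated at 0.54, 0.61, 0.61 and 0.60 for replicates 1 to 4 over 8764 genes with at least 10 CPM. Differently numbered libraries of the same set correlated as well, at 0.30 and 0.47 in set 1 and 0.37 and 0.47 in set 2. The replicate number was also fitted as a block. This pairing comes from the data and not from the labels. Over these genes part of it is shared by the whole set, whereas over the 65 members differently numbered libraries of a set correlated below 0. Alternatives were RLE, upper-quartile and total-count scaling, DESeq2 1.42.0, limma-voom 3.58.1, no filter, a filter of 1 CPM in 4 libraries, blocks, each library set, and leaving out libraries. The script was tested on simulated data.

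Members and lists were chosen with earlier results of these data known. Named with values were, by rule, all of complex II, in complexes I, III and V the 5 members with the smallest p and the extremes of log2 fold change, the Atp5g paralogs, Atf4, and up to 3 genes with the smallest p of each list. Others are named by role, and Cox6a2 was named after its values were seen. One member, counted in all totals, is not reported by itself here.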

Additional observations from a re-analysis of the deposited data

Results flagged for a closer look

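For Sdhd of complex II, WT replicate 3 stood at 65.6149 CPM, apart from the other 3 WT libraries, the nearest of which was at 53.1 CPM. Single libraries also stood apart from their group for other genes, namely ATF4OE replicate 1 for Cox5b (62.6214 CPM, nearest 76.3 CPM), ATF4OE replicate 3 for Ndufaf4 (32.2096 CPM, nearest 28.2 CPM), WT replicate 3 for Cox4i1 (192.067 CPM, nearest 179 CPM) and WT replicate 4 for Cox7a2 (43.29 CPM, nearest 45.8 CPM). In all, 110 groups of 4 values were examined, and chance alone sets about 1 in 20 apart in this way. For Atpif1 the effect of ATF4OE differed between the library sets: the log2 fold change was larger by 0.907 in set 2 than in set 1 (adjusted p 0.048 for the interaction).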

How the results depend on the processing

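The count of members called lower was 1 (Uqcrh) in the analysis as reported. It was 0, with 0 in complex III, under RLE, upper-quartile and total-count scaling and when the 4 libraries short of low counts were left out. It was 3 in DESeq2, with 2 in complex I. It was 6 with the library set as a block, with 4 in complex I and 1 in complex V. It was 9 with the replicate block, with 4 in complex I, 2 in complex III and 3 in complex V, and that fit also called 1 higher, in complex III. Within set 1 it was 2, with 1 in complex I, 0 in complex III and 1 in complex V, and within set 2 it was 1, in complex I, with 0 in complex III. On leaving out 1 library at a time the count ran from 0 to 2, from 0 to 1 in complex I and from 0 to 1 in complex III, and the members' median log2 fold change ran from -0.16 to -0.03. Limma-voom, no filter and the stricter filter gave counts of 1. Over all tested genes, calls in either direction were 2294, 2269 and 2340 of 16630 under RLE, upper-quartile and total-count scaling. They were 1583 of 17145 without the 4 libraries short of low counts. On leaving out 1 library at a time they ran from 1607 to 2088, with 17078 to 17359 genes tested. No filter gave 2086 of 25264 and the stricter filter 2086 of 12406. The cause of the changes in the members' counts was not tested, though the set and leave-one-out fits hold fewer libraries.

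Among named genes, 37 values changed sign, including that of Atf4. Atp5g1, at 0.01 as reported, was at -0.0198 with the library set as a block, -0.0135 in limma-voom, -0.0167 with the replicate block and -0.249 within set 1, where Atpaf2 was at -0.0315. Total-count scaling gave 0.0650 for Atp5g3, 0.0631 for Sdha, 0.0228 for Sdhb, 0.0358 for Sdhc, 0.0277 for Uqcr11, 0.0292 for Uqcrc2, 0.0319 for Cyc1 and 0.0577 for Ndufab1. Set 2 gave 0.0297 for Atp5g2, 0.104 for Atp5g3, 0.0779 for Sdhc, 0.140 for Uqcr11, 0.0484 for Uqcrc2 and 0.0253 for Cyc1. When the 4 libraries short of low counts were left out, which unbalances the library sets, Atp5g3 was at 0.0511, Sdha at 0.0265, Sdhb at 0.0299, Sdhc at 0.116, Uqcr11 at 0.0829, Uqcrc2 at 0.106, Atpaf1 at 0.00849, Ndufab1 at 0.104 and Atf4 at -0.108. On leaving out 1 library at a time the values ran from -0.179 (without ATF4OE replicate 3) to 0.0979 for Atp5g1, from -0.168 to 0.0186 (without ATF4OE replicate 2) for Atp5g3, from -0.00374 (without ATF4OE replicate 3) to 0.171 for Sdhd, from -0.218 to 0.00553 (without ATF4OE replicate 1) for Uqcr11, from -0.0117 (without ATF4OE replicate 3) to 0.0879 for Atpaf2 and from -0.0194 (without WT replicate 2) to 0.123 for Sdhaf2. The cause was not tested.

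The Uqcrh call was lost on leaving out any 1 of 6 libraries, whereas Pprc1 kept its call without each of the 8 in turn (adjusted p 0.0079 to 0.043). All 65 members passed the filter on low counts, and the interval of 19 of 65 lies within 1.25-fold.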
